A study of Drosophila melanogaster with 10 samples.

Results

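The basement membrane genes described here are 10 genes of Drosophila melanogaster, chosen by name: Col4a1, vkg, Ndg, LanA, LanB1, LanB2, SPARC, Ppn, trol and Pxn. All 10 were found among the 17869 genes of set 1 and among the 11799 genes of set 2, and all 10 passed the filter on low values (a mean of at least 1) in both sets. RNA was sequenced from S2 cells, an established line from late embryos whose cells resemble the blood cells (hemocytes) of the fly. All samples were labelled with culture at 25 C and 10% fetal bovine serum. In every group the cells had been transfected with Achaete (Ac), a proneural transcription factor, together with Daughterless (Da), with which it pairs, and carried a knockdown (KD), made with double-stranded RNA. Set 1 held Ac R29G with Luc KD, Ac WT with H2A.Z KD and Ac WT with Luc KD, and set 2 held Ac WT with Arp6 KD and Ac WT with Luc KD, with 2 libraries in each of the 5 groups. R29G is a variant of Ac, H2A.Z is a histone variant encoded by His2Av, Arp6 is a subunit of the remodeller that loads this variant onto nucleosomes, and Luc is the control target. The series title names Arp6 and gene activation by proneural proteins as its subject. No group lacked transfection or double-stranded RNA, so every level below is that of transfected cells under a knockdown. The libraries of set 1 were deposited in a first and a second table, called table A and table B here, each with 1 library of every group.

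A basement membrane is a thin sheet of extracellular matrix under epithelia and around muscle, fat body and nerves. Laminin, a trimer of an alpha, a beta and a gamma chain, and collagen IV, a trimer built from the chains of Col4a1 and vkg, each form a network. Nidogen (Ndg) binds both, and perlecan (trol), a heparan sulfate proteoglycan, is held in the sheet with them. In the fly, fat body cells and hemocytes secrete most of its collagen IV. LanA, LanB1 and LanB2 encode the laminin alpha, beta and gamma chains. SPARC is a collagen-binding glycoprotein needed for collagen IV to be deposited properly, Pxn is the peroxidase that crosslinks collagen IV, and Ppn (papilin) is a large matrix proteoglycan-like protein.

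Depth ran from 24500413 to 33712374 reads per library for set 1 and from 9396318 to 10608470 for set 2. Each value is a read number divided by the size factor of its library, here called scaled reads, and is comparable between libraries of a set but not between sets. The targeted genes were lower in the knockdowns, unevenly: His2Av was at 1702 (table A) and 790 (table B) in H2A.Z KD libraries, against 6489 and 5679 in Luc KD libraries, and Arp6 was at 386 and 96.5 in Arp6 KD libraries, against 483 and 438 in Luc KD libraries. All of 9 hemocyte markers were detected in both sets. Detection alone does not set cell types apart, since all genes of the muscle, neuron, glia and epithelium lists below were detected too. The summed value of the 9 hemocyte markers was 146127 to 184859 in R29G, 203981 to 238217 in H2A.Z KD and 150557 to 178860 in Luc KD of set 1. In set 2 it was 78412 to 82029 in Arp6 KD and 66212 to 66716 in Luc KD. The summed value of 5 fat body markers reached at most 58.6 in set 1, with Lsp1alpha at 0, and at most 9.46 in set 2, with Lsp1alpha and Yp1 at 0. The muscle list (4 genes) summed to at most 156 in any library. The neuron list (3 genes) summed to 744.5 to 810.6 in set 1 and 215.2 to 272.3 in set 2, the glia marker repo was at 66.3 to 122.7 and 32.6 to 72.8, and the epithelium list (3 genes) summed to 9817 to 11812 and 3784 to 3807.

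The genes lie on 5 chromosome arms (coordinates in BDGP6). Col4a1 (FBgn0000299, 2L 5029609 to 5037279, plus strand) and vkg (FBgn0016075, 2L 5012144 to 5028191, minus strand) stand head to head with 1417 bases between them. LanB1 (FBgn0261800) is at 2L 7811438 to 7820771, LanA (FBgn0002526) at 3L 6203831 to 6218022 and LanB2 (FBgn0267348) at 3L 9614914 to 9623980. Ndg (FBgn0026403) is at 2R 10313891 to 10322104, trol (FBgn0284408) at X 2470460 to 2545427, Ppn (FBgn0003137) at 3R 28520665 to 28540324 and Pxn (FBgn0011828) at 3L 2601455 to 2630064. SPARC (FBgn0026562, 3R 26869238 to 26871995, minus strand) ends 17 bases from the end of His2Av on the opposite strand, and the sources used here do not give whether reads were counted by strand. Genes overlap Ndg, trol and Pxn, and the most abundant of them, CG16986 within Pxn, was at 0.252% of the Pxn value.

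Collagen IV and laminin alpha took many reads, which also reflects gene length, and Ndg took few. By mean scaled reads, Col4a1 ranked 4 and vkg 9 of 17869 genes in set 1, and 3 and 10 of 11799 genes in set 2. LanA ranked 18 in set 1 and 11 in set 2, and Pxn 96 and 41. Ndg ranked 6526 in set 1 and 6955 in set 2, and Ppn 1135 and 1039. By mean scaled reads per kilobase (kb) of exon, among 17790 genes of set 1 with a length, Col4a1 ranked 90, SPARC 97, vkg 114, LanA 172, Pxn 192, LanB2 245, LanB1 324, trol 1189, Ppn 3743 and Ndg 7378. Together the 10 genes took 2.54% and 2.26% of all reads in the R29G libraries (tables A and B), 2.64% and 2.08% with H2A.Z KD and 2.45% and 2.11% with Luc KD in set 1. In set 2 they took 2.82% and 2.64% of reads in Arp6 KD replicates 1 and 2, and 2.60% and 2.45% in Luc KD replicates 1 and 2. The 95% Wilson intervals of these shares were at most 0.0204 percentage points wide, which covers counting error only. The share was thus higher in table A than in table B in every group of set 1, and in H2A.Z KD it was above the Luc KD share of its own table in table A and below it in table B.

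Divided by the summed exon length of the gene, the levels followed 1 order in set 1: Col4a1, SPARC, vkg, LanA, Pxn, LanB2, LanB1, trol, Ppn and Ndg. Each gene was above the next in 6 of 6 libraries of set 1. In set 2 the order of the means was the same, and each gene was above the next in 4 of 4 libraries except LanA over Pxn, which held in 3 of 4. The mean per kb in set 1 was 40178 for Col4a1, 29205 for SPARC, 20345 for vkg, 9681 for LanA and 8172 for Pxn. It was 6629 for LanB2, 5157 for LanB1, 1636 for trol, 502 for Ppn and 38.0 for Ndg. Across libraries of set 1 the ranges of neighbours overlapped from Col4a1 to vkg and from LanA to LanB1, and were apart at vkg over LanA, LanB1 over trol, trol over Ppn and Ppn over Ndg. trol has the longest exon sequence of the set (20674 bases over 25 annotated transcripts).

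**Figure D1:**
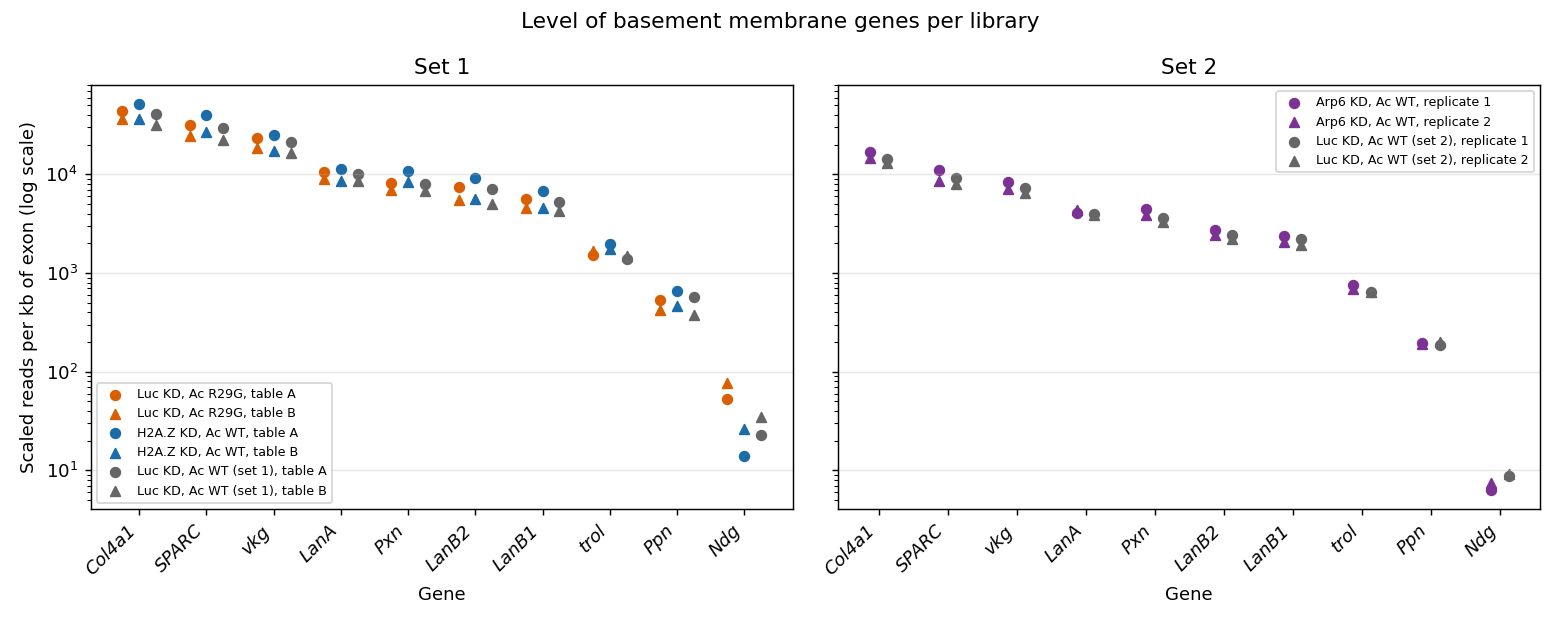
Scaled reads per kb of exon (log axis) of the 10 basement membrane genes in each library, set 1 at left and set 2 at right, with 1 point per library. Circles are table A or replicate 1 and triangles table B or replicate 2; the genes span from a mean of 40178 per kb for Col4a1 to 38.0 per kb for Ndg in set 1, and Ndg has the widest spread over libraries in set 1.

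Ratios per kb between the chains varied less for collagen IV than for laminin. Col4a1 stood 1.89 to 2.10 times above vkg per kb over the 6 libraries of set 1 and 1.97 to 2.03 times over the 4 libraries of set 2. The gamma chain LanB2 stood 1.18 to 1.36 times above the beta chain LanB1 in set 1 and 1.10 to 1.17 times in set 2. LanA stood 1.66 to 2.06 times above LanB1 in set 1 and 1.74 to 2.13 times in set 2, and 1.22 to 1.75 times above LanB2 in set 1 and 1.49 to 1.82 times in set 2. Col4a1 over Ndg ranged from 473 to 3669 in set 1. These ratios are ranges over libraries and describe RNA levels, not chains of a trimer.

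The libraries of one group differed between tables A and B. Table B was below table A for 9 of the genes in H2A.Z KD, by log2 differences of -0.17 (trol) to -0.71 (LanB2). It was also lower for 8 genes in R29G and in Luc KD, and there trol was higher in table B by 0.13 and 0.10. Ndg went the other way, with table B higher by 0.55 in R29G, 0.89 in H2A.Z KD and 0.59 in Luc KD. Because libraries of the same table varied together over all genes, fits with the table as a block are given beside those without it.

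**Figure D2:**
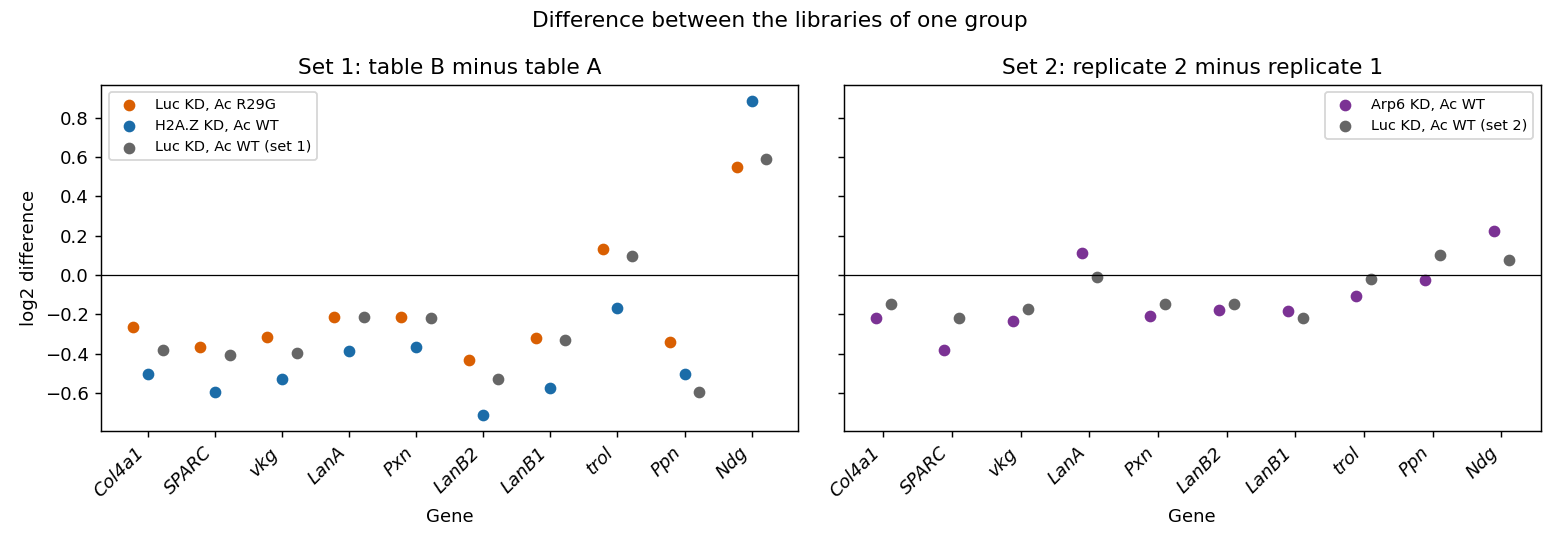
log2 difference between the libraries of one group for each gene: table B minus table A in set 1 (left), replicate 2 minus replicate 1 in set 2 (right). Points are groups; in set 1 all genes but trol and Ndg lie below 0 in every group, and Ndg lies above 0 at 0.55 to 0.89.

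The comparison of Ac R29G with Ac WT, both under Luc KD, asks what depends on the form of Ac. Of the targeted and transfected genes His2Av, Arp6, ac and da, 0 of 4 passed limma with or without the block, with a median log2 difference of -0.0022. That does not show that both groups carried equal amounts of ac and da. Ndg stood out: its value was 253.6 and 371.8 in R29G libraries (tables A and B), against 110.8 and 167.4 in Luc KD libraries with Ac WT. R29G was at 229% of WT in table A and 222% in table B, and the groups did not overlap. These values rest on 273 and 432 reads in R29G, with 95% Poisson intervals of 242 to 307 and 392 to 475, and on 130 and 164 reads in WT, with intervals of 109 to 154 and 140 to 191. The log2 difference, on the log2(value + 1) scale, was 1.17 (SE 0.36). It did not pass limma without a block (adjusted p = 1.00) and passed with the table as a block (SE 0.15, adjusted p = 0.000815). In bulk RNA, fewer cells of a type and less RNA per cell cannot be told apart.

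Without a block, 0 of the 10 genes passed limma, as did 0 of 11942 genes in all (0%). At an unadjusted p under 0.05 stood 1 of the 10, Ndg, and 240 of all genes; edgeR called 0 genes (0%, 244 unadjusted) and DESeq2 called 8 genes (0.067%, 123 unadjusted), with 0 of the 10 among them. With the block, Ndg was the 1 called of the 10, and 0.62% of all genes were called (0.218% higher and 0.402% lower). Ndg and trol were higher in both R29G libraries than in either WT library, 2 of 10, where 11.9% of all genes were. trol was at 31280 and 34304 in R29G and at 28912 and 30924 in WT, a log2 difference of 0.13 (SE 0.11, adjusted p = 1.00 in limma, 0.767 with the block).

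The log2 differences of the other genes between R29G and WT ran from 0.04 (Pxn and Ppn) to 0.15 (Col4a1 and vkg). Col4a1 was at 270283 and 225117 in R29G, against 254115 and 195357 in WT, and vkg at 150656 and 121338, against 140141 and 106531, so the groups overlapped for both. The laminin chains overlapped too: LanA was at 122611 and 105838 in R29G, against 117678 and 101385 in WT, LanB1 at 35349 and 28369, against 33260 and 26437, and LanB2 at 43714 and 32353, against 42283 and 29353. Within each table, 9 of 10 genes were higher in R29G in both tables, where 29.3% of all genes were, and Ppn was at 94.0% of WT in table A and 112% in table B. The median difference of the 10 genes was 0.11, that of all genes 0.01 and that of the 473 genes with a mean of at least 10000 was 0.04, a bound chosen after the values were seen; 80.1% of those 473 were above 0. With quantile normalization the median of the 10 genes was 0.05. In the authors' deposited table, which gives WT over R29G and so has the opposite sign, Ndg was at -1.17 with an adjusted p of 1.00 (raw p = 0.00542), and 0 of the 10 genes passed, where 0.0544% of features did.

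**Figure D3:**
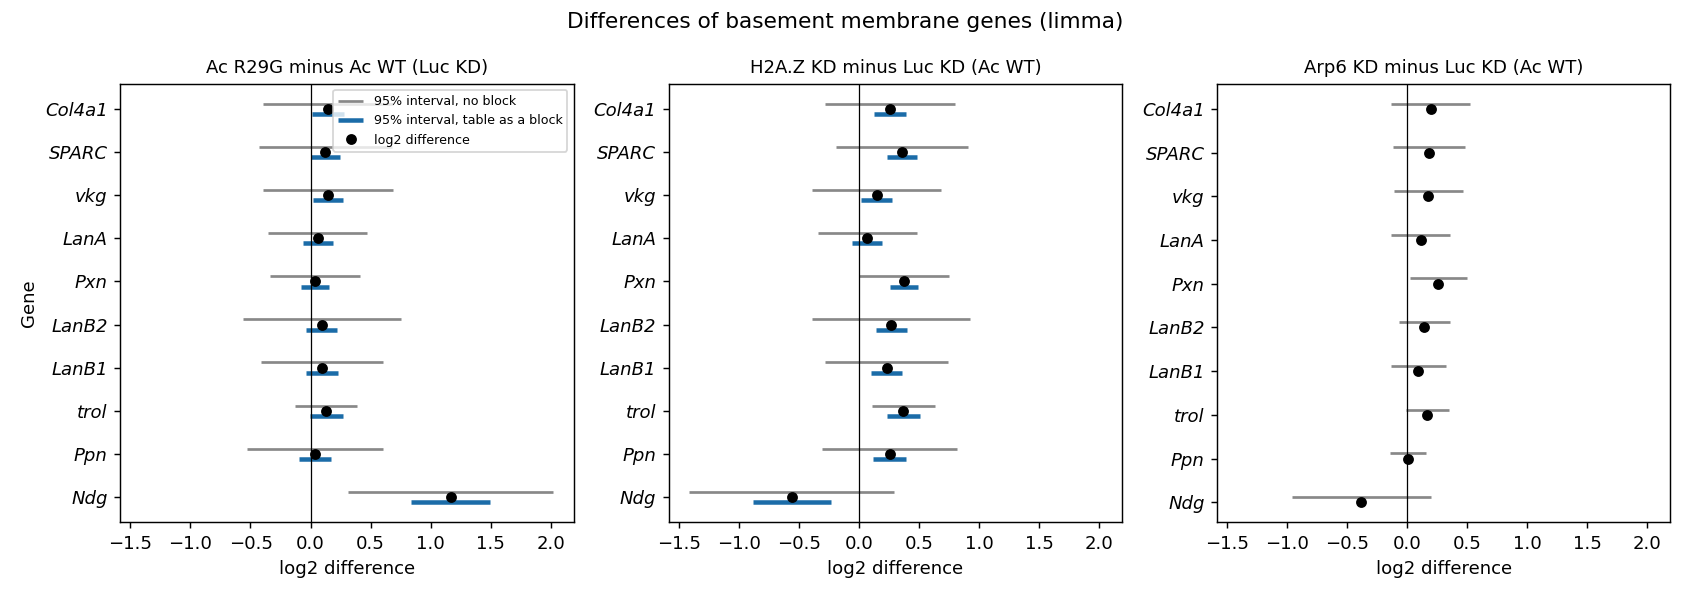
limma log2 differences of the 10 genes in the 3 comparisons, with 95% intervals without a block (grey) and, in set 1, with the table as a block (blue). Ndg lies at 1.17 in R29G minus WT, at -0.56 in H2A.Z KD minus Luc KD and at -0.38 in Arp6 KD minus Luc KD; the other genes lie between 0.00 and 0.38.

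The comparison of H2A.Z KD with Luc KD, both with Ac WT, uses the same Luc KD libraries as the R29G comparison, so the differences of both comparisons share their controls. Ndg was at 67.5 and 125.7 in H2A.Z KD libraries, against 110.8 and 167.4 in Luc KD libraries. That is 61.0% of Luc KD in table A and 75.1% in table B, and the groups overlapped, with Ndg higher in table B than in table A in both. The log2 difference was -0.56 (SE 0.36, adjusted p = 0.386 in limma, and 0.00889 with the block, SE 0.15). With the block, Ndg lost its call without Luc KD table A (-0.49, adjusted p = 0.101).

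For trol and Pxn both H2A.Z KD libraries were above both Luc KD libraries. trol, perlecan, was at 40984 and 36498 in H2A.Z KD, against 28912 and 30924 in Luc KD, a log2 difference of 0.37 (SE 0.11, adjusted p = 0.101 in limma, 0.000254 with the block). Pxn, the collagen crosslinker, was at 64405 and 50017 in H2A.Z KD, against 47144 and 40512 in Luc KD, a difference of 0.38 (SE 0.16, adjusted p = 0.198 in limma, 5.14e-05 with the block). That held for 2 of 10 genes, where 25% of all genes were higher without overlap. Both were further above Luc KD in table A (142% for trol, 137% for Pxn) than in table B (118% and 123%). His2Av, in contrast, was lower in table B. Of the 10 genes only Ppn was further from Luc KD in table B (116% and 123% in tables A and B). A link to the depth of the knockdown was not tested. In the authors' deposited table trol was the 1 member that passed (log2 fold change 0.37, adjusted p = 0.00823), where 8.86% of features passed.

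In scaled reads, the collagen IV chains and SPARC were higher in H2A.Z KD within each table, while the groups overlapped. Col4a1 was at 317198 and 224103 in H2A.Z KD, against 254115 and 195357 in Luc KD (log2 difference 0.26, SE 0.23). vkg was at 162598 and 112561, against 140141 and 106531 (0.15, SE 0.23). As a share of all reads, vkg was higher in table A (0.494% in H2A.Z KD, 0.488% in Luc KD). In table B its share was lower (0.376% in H2A.Z KD, 0.401% in Luc KD). SPARC was at 48458 and 32112 in H2A.Z KD, against 35449 and 26746 in Luc KD (0.36, SE 0.23); His2Av, its close neighbour, was lower in the same libraries. With the block the adjusted p in limma was 0.00414 for Col4a1, 0.0660 for vkg and 0.000152 for SPARC, against 0.526, 0.737 and 0.390 without it. Of the collagen IV pair, Col4a1 passed and vkg did not, and the ratio of Col4a1 to vkg per kb was 2.06 and 2.10 in H2A.Z KD (tables A and B), against 1.91 and 1.93 in Luc KD, without overlap; the difference between these ratios was not tested.

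Of the laminin chains, LanB1 and LanB2 passed with the block and LanA did not. LanA was at 131204 and 100274 in H2A.Z KD, against 117678 and 101385 in Luc KD, which is 111% of Luc KD in table A and 98.9% in table B (log2 difference 0.07, adjusted p = 0.380 with the block). LanB1 was at 42439 and 28507, against 33260 and 26437 (0.23, adjusted p = 0.00714 with the block). LanB2 was at 54409 and 33187, against 42283 and 29353 (0.27, adjusted p = 0.00226 with the block). As a share of all reads, LanA was lower in H2A.Z KD in table A (0.398%, against 0.410%) and in table B (0.335%, against 0.381%). The share of LanB1 was higher in table A (0.129%, against 0.116%) and lower in table B (0.0953%, against 0.0994%). That of LanB2 was higher in both (0.165%, against 0.147%, and 0.1109%, against 0.1104%). Ppn was at 6252 and 4413 in H2A.Z KD, against 5408 and 3581 in Luc KD (0.26, adjusted p = 0.00450 with the block).

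In all, 0 of 10 genes passed limma without the block, where 4.65% of all genes did (293 higher and 262 lower, a split of 806 and 180 when libraries were scaled to their medians); 2 of the 10 had an unadjusted p under 0.05, edgeR called 0 of the 10 (4.42% of all genes) and DESeq2 called trol (12.2% of all genes). With the block 7 of 10 passed as higher, where 18.4% of all genes did, and Ndg passed as lower, where 19.3% did. Among these calls, Col4a1, LanB1 and LanB2 were lost without H2A.Z KD table A (adjusted p = 0.159, 0.245 and 0.0756), LanB1 without Luc KD table A (0.0911) and Ppn without Luc KD table B (0.159), while vkg was called without H2A.Z KD table B or either R29G library; SPARC, trol and Pxn were called in each of these fits (limma with the block). Within each table, 8 of 10 were higher in both tables, where 37.4% of all genes were, and 1, Ndg, was lower in both, where 38.6% were. The median difference was 0.26 for the 10 genes, -0.01 for all genes and 0.25 for the 473 genes with a mean of at least 10000. Of those 473 genes, 86.9% were above 0 and 70.6% were called higher with the block. 8 of the 10 members are among the 473, and 6 of the 8 were called higher. Under quantile normalization, which gives every library the same distribution, the median of the 10 genes was -0.01, and with the block 0 of the 10 were called higher (15% of all genes were) and 2 lower (16.9% of all genes were): LanA (-0.25, adjusted p = 0.00184) and Ndg (-0.47, adjusted p = 0.0334). Under that normalization vkg, LanA, LanB1 and LanB2 were below 0, and the difference of Ndg was below 0 under each scaling tried.

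**Figure D4:**
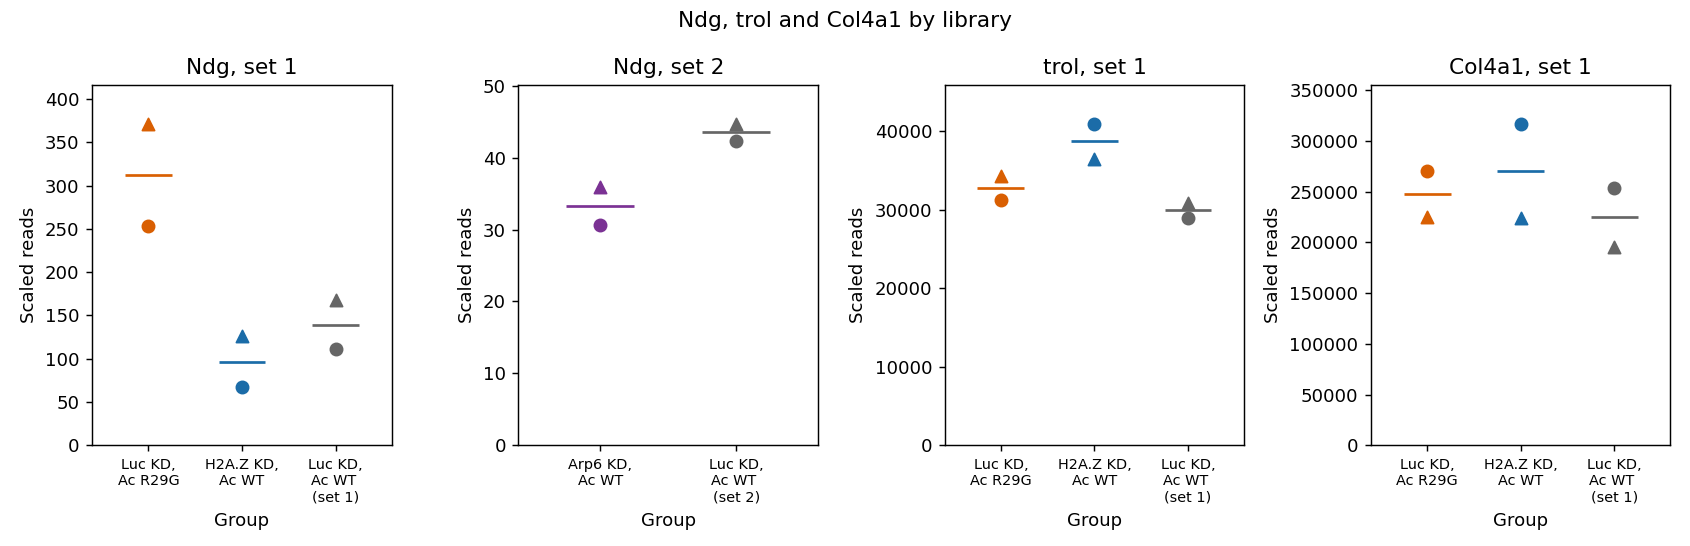
Scaled reads per library of Ndg in set 1 and set 2, and of trol and Col4a1 in set 1 (linear axes from 0). Circles are table A or replicate 1, triangles table B or replicate 2 and bars group means; Ndg in R29G (253.6 and 371.8) lies above both Luc KD libraries with Ac WT (110.8 and 167.4), whereas the Col4a1 groups overlap.

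The comparison of Arp6 KD with its own Luc KD controls, with Ac WT throughout, asks what differs when Arp6 is targeted. As given above, Arp6 RNA was only slightly lower in replicate 1 and much lower in replicate 2. Arp6 itself did not pass limma with or without the block, so the lack of calls below does not show independence from Arp6. Of the 10 genes, 0 passed limma (adjusted p from 0.701 to 0.993), where 0.0283% of all genes, 3 of 10605, did; Pxn alone had an unadjusted p under 0.05, as did 739 of all genes, and edgeR called 4 genes (0.0377%) and DESeq2 16 (0.151%), with 0 of the 10 among them. Pxn was at 26420 and 22850 in Arp6 KD replicates 1 and 2, against 21626 and 19556 in Luc KD replicates 1 and 2, a log2 difference of 0.26 (SE 0.10, adjusted p = 0.701). Col4a1 was at 104500 and 89995, against 88959 and 80451 (0.20, SE 0.14, adjusted p = 0.749), and trol at 15483 and 14383, against 13390 and 13186 (0.17, SE 0.08, adjusted p = 0.702). LanA was at 47680 and 51490 in Arp6 KD, against 46018 and 45759 in Luc KD (0.11, SE 0.11, adjusted p = 0.80).

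For these 4 genes both Arp6 KD libraries were above both Luc KD libraries, 4 of 10, where 18.6% of all genes were. For Ndg both were below, at 30.6 and 35.9 in Arp6 KD, against 42.3 and 44.7 in Luc KD, where 20.4% of all genes were. Ndg rests here on 30 and 38 reads in Arp6 KD and 40 and 46 in Luc KD, and the 95% Poisson intervals overlap (20.2 to 42.8 and 26.9 to 52.2 in Arp6 KD, 28.6 to 54.5 and 33.7 to 61.4 in Luc KD), which cover counting error only. Its log2 difference was -0.38 (SE 0.25, 95% interval -0.96 to 0.19, adjusted p = 0.734 in limma). The groups of the other 5 genes overlapped. vkg was at 54878 and 46724 in Arp6 KD, against 47518 and 42227 in Luc KD (0.18), and SPARC at 13330 and 10245, against 11113 and 9544 (0.18). LanB2 differed by 0.14, LanB1 by 0.09 and Ppn by 0.00. Pxn was at 122% of Luc KD in replicate 1 and 117% in replicate 2, and trol at 116% and 109%, although Arp6 RNA was lower in replicate 2. LanA (104% and 113%) and LanB1 (105% and 108%) went the other way, and a link to the depth of the knockdown was not tested. The median of the 10 genes was 0.16, that of all genes -0.01 and that of 320 genes with a mean of at least 5000 was 0.12, and with quantile normalization the median of the 10 was 0.01. Among those 320 genes, 88.75% had a difference above 0. In Arp6 KD the transfected genes also varied: ac was at 9870 and 26670, against 20334 and 28708 in Luc KD, and da at 23754 and 53698, against 51739 and 65741, and the part of this in the differences above was not tested.

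**Figure D5:**
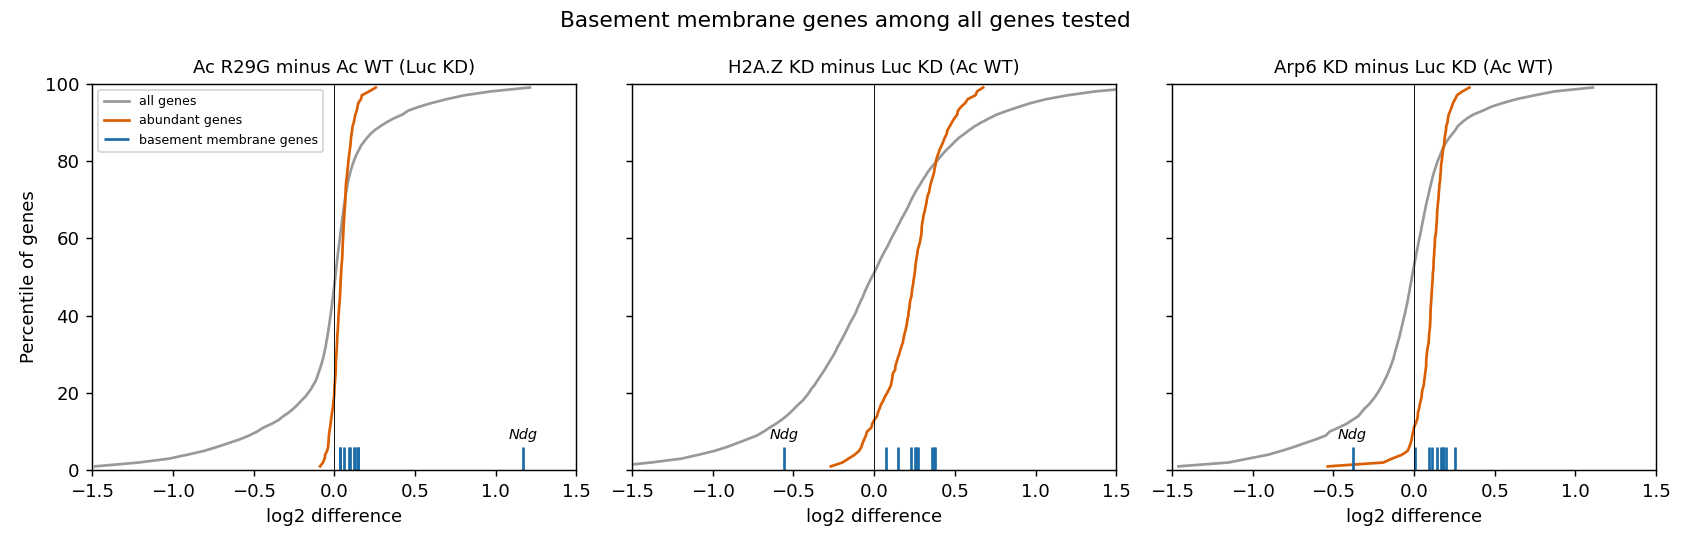
Percentile curves of the log2 differences of all genes tested (grey) and of abundant genes (orange, mean of at least 10000 in set 1 and 5000 in set 2), with the 10 basement membrane genes as blue ticks. Ndg lies apart from the other ticks in each panel; the others lie in the span of the abundant genes, whose medians are 0.04, 0.25 and 0.12.

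Other genes of the pathway were counted from lists chosen with earlier results of these data known. Among 7 further matrix components, Tiggrin (Tig), an integrin ligand, rose in H2A.Z KD: it was at 27181 and 21961, against 13473 and 11678 in Luc KD, a log2 difference of 0.96 (SE 0.14, adjusted p = 0.0234 in limma). Tig was the 1 of 7 that passed without the block, where 4.65% of all genes did. The laminin alpha chain wb, glutactin (Glt) and mspo passed as well with the block, 4 of 7 higher, where 18.4% of all genes were, and the median of the 7 was 0.42, with all 7 above 0. In R29G the median was 0.085 and in Arp6 KD 0.24, and 0 of 7 passed in either, with or without the block in R29G; prc and Tig differed most in R29G (0.82 and 0.23), and Tig and Mp in Arp6 KD (0.43 and -0.42).

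Of 12 receptors and cell surface proteoglycans, the integrin alpha chain ItgaPS5 rose in H2A.Z KD, with 817 and 809, against 162 and 175 in Luc KD, a log2 difference of 2.27 (SE 0.14, adjusted p = 0.00297 in limma). ItgaPS5 was the 1 of 12 that passed without the block, where 4.65% of all genes did. In Arp6 KD its difference of 0.73 did not pass (143.8 and 115.4 in Arp6 KD, against 69.8 and 85.6 in Luc KD; adjusted p = 0.575), nor did that of Ddr (1.01), which was at 5.10 and 5.67 in Arp6 KD, against 1.06 and 3.89 in Luc KD; 0 of 12 passed there. With the block 8 of 12 passed as higher in H2A.Z KD, where 18.4% of all genes did, namely ItgaPS5, mys, the main integrin beta chain (0.39), the second beta chain Itgbn (0.47), the alpha chains mew (0.53), if (0.69), scb (0.42) and ItgaPS4 (0.52), and the glypican dally (0.54). Dystroglycan (Dg), a laminin receptor, was the 1 of 12 that passed as lower, where 19.3% of all genes did (5542 and 4725 in H2A.Z KD, against 6549 and 6261 in Luc KD). The median of the 12 was 0.49 in H2A.Z KD, 0.04 in R29G and 0.03 in Arp6 KD. In R29G 0 of 12 passed with or without the block, and the largest differences were those of Ddr (0.56) and the glypican dlp (-0.49).

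Genes listed for folding and secreting collagen were higher in H2A.Z KD. The list is not limited to genes that serve collagen alone, and an effect on collagen was not tested. Of 11 measured, 4 passed limma, where 4.65% of all genes did in either direction: Hsc70-3, the BiP chaperone, was at 149561 and 142539 in H2A.Z KD, against 85578 and 73734 in Luc KD (0.88, SE 0.13, adjusted p = 0.0244), and Pdi (0.63), CaBP1 (0.65) and Gp93 (0.50) also rose. Without the intensity trend, or with values as deposited (scaled per table), none of these 4 was called. With the block 11 of 11 passed as higher, where 18.4% of all genes did and 70.6% of the 473 genes with a mean of at least 10000. These included Tango1, the cargo receptor for collagen export (0.16), PH4alphaEFB, a prolyl hydroxylase (0.54), Plod, the lysyl hydroxylase (0.37), the vesicle coat proteins Sar1 (0.33) and Sec23 (0.29), and Rab10 (0.26) and Crag (0.19), which act in the polarized secretion of basement membrane. The median was 0.37, and 0.22 with quantile normalization. In Arp6 KD the median was 0.12 and 0 of 11 passed, with PH4alphaEFB (0.33) and Hsc70-3 (0.31) the largest. In R29G the median was 0.04 and 0 of 11 passed with or without the block, with CaBP1 and Plod the largest (0.08 each).

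Among 7 measured remodelling enzymes and inhibitors, the metalloproteinase Mmp1 was higher in R29G, at 3431 and 3461, against 2588 and 2540 in WT, a log2 difference of 0.43 (SE 0.11; adjusted p = 1.00 in limma, 0.00798 with the block). Mmp1 was the 1 of 7 called in R29G with the block, where 0.62% of all genes were. In H2A.Z KD 0 of 7 passed without the block; with it Mmp1, Mmp2 and their inhibitor Timp passed as higher, 3 of 7 where 18.4% of all genes did, and AdamTS-B as lower, 1 of 7 where 19.3% did, and the median was -0.09 (0.11 with quantile normalization). In Arp6 KD the median was -0.21 and 0 of 7 passed, with stl (-0.36) and AdamTS-B (-0.31) the largest. Of the 9 hemocyte markers, 2 passed limma as higher in H2A.Z KD without the block, NimC1 and eater, where 4.65% of all genes did in either direction. With the block 8 passed as higher, srp, Pvr, ush, Hml, Sr-CI and He besides these 2, where 18.4% of all genes did. Of the 473 genes with a mean of at least 10000, 70.6% did. The median of the 9 was 0.51 with 9 of 9 above 0, and 0.19 with 6 of 9 above 0 under quantile normalization. Of the 8 genes of these lists called in H2A.Z KD without the block, Tig, Hsc70-3, Pdi, CaBP1, Gp93 and eater lost the call in limma whichever library was left out (adjusted p from 0.0565 to 0.169), without the intensity trend and with values as deposited; Gp93 (0.230) and Pdi (0.0836) also lost it with quantile normalization. ItgaPS5 lost it without H2A.Z KD table B (0.0503) and without the trend (0.0668), NimC1 kept it in each of these fits, and with the block all 8 were called whichever library was left out. Of the epithelium list crb, dlg1 and baz passed with the block in H2A.Z KD, 2 as higher, where 18.4% of all genes did, and 1 as lower, where 19.3% did. The transfected da was at 72676 and 65240 in H2A.Z KD, against 104492 and 92873 in Luc KD (-0.52, adjusted p = 1.74e-05 in limma with the block). The part of these in the values of the matrix genes was not tested.

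Across the 10 libraries, with each gene centred on the mean of its set, the genes with the pattern most like that of Col4a1 were eIF4A (Pearson r 0.991), RpLP1 (0.990), nAChRbeta3 (0.984), Non1 (0.982) and SPARC (0.980), out of 7968 genes. vkg ranked 11 (0.974), LanB2 14 (0.972) and LanB1 15 (0.971). Pxn ranked 208 (0.895), Ppn 418 (0.848), LanA 455 (0.840) and trol 1878 (0.534), and Ndg ranked 6653 (-0.511). The libraries of a set share their scaling and their tables, so these values are a description with no p.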

How the data were processed

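Per the labels, RNA was taken from S2 cells with Trizol and libraries were made with an MGIEasy or a TruSeq kit; the sources used here do not give which library had which. The submitters' processing notes name Partek and BDGP6, without a role. The authors deposited, for each gene, a signal made of reads over the size factor of the library, and whole reads could be recovered from 100% of values within a tolerance of 0.001. Per the file headers, the authors deposited 2 comparisons of their own, with log2 fold changes and a score that divides each by its error. The p-values in those deposited tables are given raw and adjusted. The columns of set 1 carry no replicate number. Set 1, scaled by the authors per table, was rescaled jointly by median-of-ratios; set 2 kept its deposited values, and the sets were never fitted together.

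limma 3.58.1 (R 4.3.3) with an intensity trend was run on log2(value + 1) over genes whose mean reached 1, and p-values were adjusted by Benjamini-Hochberg over all genes tested and a threshold of 0.05; such differences understate changes of low genes. As alternatives, the recovered counts, deposited by the authors in scaled form, were tested with edgeR 4.0.16 (quasi-likelihood) and with DESeq2 1.42.0. The limma fits were tested on simulated data with larger changes than any of the 10 genes showed and without a table effect. Differences as small as those of most of the 10 genes were not simulated. Deviations from group means correlated at 0.65, 0.62 and 0.58 between libraries of the same table (9103 genes), so set 1 was read as paired by table; this rests on the shared tables and these values, not on the labels. No label ties a library to its own culture, and p-values thus reflect library spread that may be technical. The genes and lists were chosen with earlier results of these data known. All 10 genes are named in each comparison; of the other lists, genes past the threshold with or without the block, otherwise the 2 with the largest difference. Exon lengths came from the Ensembl annotation of BDGP6, in which 17790 of 17869 identifiers were found. Python 3.11.15 with pandas 2.3.3 handled the tables.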

Additional observations from a re-analysis of the deposited data

How the results depend on the processing

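The cause of the moves below was not tested. In R29G against WT, 0 genes were called without a block, and DESeq2 called 8. The replicate block (table) called 74, 63 with quantile normalization, 92 with libraries scaled to their medians and 162 in edgeR, and each of these 4 fits called 1 basement membrane gene, Ndg. In H2A.Z KD against Luc KD the count of 555 moved to 4497 with the replicate block, 3813 with quantile normalization and the block, 986 with library medians, 4569 with library medians and the block, 45 with values as deposited (scaled per table), 2 without the intensity trend, 4648 in edgeR with the block and 1454 in DESeq2. The basement membrane genes called there were 8 with the block, 2 with quantile normalization and the block, 1 with library medians, 9 with library medians and the block, 8 in edgeR with the block and 1 in DESeq2. Scaling to library medians moved the median of all genes to 0.13 in H2A.Z KD and that of the 10 genes to 0.41. In Arp6 KD the count of 3 moved to 0 with the replicate block, with quantile normalization, with no filter and without the trend, to 22 with quantile normalization and the block, 181 with library medians and the block, 86 in edgeR with the block and 16 in DESeq2; 1 basement membrane gene, Pxn, was called with library medians and the block and with edgeR and the block. In set 2 the samples share only a number (correlation 0.50 over 7976 genes, 2 pairs). Fits that combine the block with quantile normalization or library medians were added after seeing the data.

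Some small differences changed sign. With quantile normalization, with and without the block, Pxn was at -0.081 in R29G. In H2A.Z KD vkg was at -0.080, LanA at -0.25, LanB1 at -0.045 and LanB2 at -0.026, and in Arp6 KD LanB1 was at -0.039 and Ppn at -0.036. Ppn was at -0.00050 in edgeR and -0.00073 in edgeR with the block in Arp6 KD.

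Leaving out each library in turn, with and without the replicate block, called 0 to 326 genes in R29G (0 without the block), 4 to 4860 in H2A.Z KD (4 to 92 without the block) and, without the block, 0 to 6 in Arp6 KD. Of the basement membrane genes it called 0 to 1, 0 to 9 and 0 to 0; a lone library was assumed to vary like the other groups. The log2 differences then ran, in R29G, from -0.043 to 0.34 for Col4a1, -0.052 to 0.34 for vkg, -0.047 to 0.17 for LanA, -0.071 to 0.26 for LanB1, -0.17 to 0.36 for LanB2, -0.078 to 0.33 for SPARC, -0.26 to 0.34 for Ppn and -0.073 to 0.15 for Pxn. In H2A.Z KD they ran from -0.12 to 0.41 for vkg, -0.12 to 0.26 for LanA, -0.057 to 0.52 for LanB1, -0.086 to 0.63 for LanB2 and -0.042 to 0.55 for Ppn. In Arp6 KD they ran from -0.015 to 0.20 for LanB1, -0.0076 to 0.37 for SPARC and -0.046 to 0.055 for Ppn. The ends of the set 1 ranges came from fits without the block. With the block, only Ppn (-0.066 to 0.14) and Pxn (-0.0036 to 0.077) changed sign in R29G, and only LanA (-0.017 to 0.16) in H2A.Z KD. Ndg and trol kept their sign in every alternative of all 3 comparisons. With the block, leaving out a library in set 2 left no residual degrees of freedom and was not run. The 30 to 46 reads of Ndg per library limit its precision in set 2.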
